A study of Mus musculus with 5 samples.

Results

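Cluster 1 was the largest of the 6 beta cell clusters in the deposited annotation of isolated mouse islets. Its members were the cells numbered 1 in the authors' cluster table, and there were 4360 of them among 11607 beta cells and 18221 cells in all. All carried the authors' beta cell label (0 exceptions). The deposited tables give 4 facts per cell: its library, cell type, cluster number and coordinates in a UMAP, a 2-dimensional map of cells. Levels of Ins1 and Ins2, the mouse insulin genes that define beta cells, were not analysed here, so the label was not checked. Of the 30 nearest neighbours of cluster 1 cells, 3.76% were not beta cells. This is no check of the label, since clusters and positions come from the same cells.

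Beta cells make and secrete insulin, and their large output of secretory protein places a steady load on the endoplasmic reticulum. ATF6α, encoded by Atf6a, is a membrane-bound sensor of that compartment. When misfolded protein builds up, it moves to the Golgi, is cut there, and its released part enters the nucleus to switch on chaperone and degradation genes. A high-fat diet raises the demand for insulin, to which mouse islets respond with more beta cells and more secretion per cell.

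Control mice were Atf6a fl/fl without Cre. Knockout mice (labelled cKO) were RIP-Cre;Atf6a fl/fl, in which a rat insulin promoter drives the recombinase, so that the gene is deleted chiefly in beta cells. Only cKO mice carried Cre, so Cre and the deletion cannot be told apart, and the deletion was not measured here. Both genotypes received chow with 10% of its energy from fat (normal diet) or 60% (high-fat diet) starting at 6 weeks. Islets were isolated at an age of 22 weeks. Each library pooled the islets of 2 mice. There were 5 libraries in 4 groups. A single library stood for control mice on normal diet, for control mice on high-fat diet and for cKO mice on high-fat diet. For cKO mice on normal diet there was 1 library of batch 1 and 1 of batch 2. Sample titles name a batch only for these cKO normal-diet libraries, and the single libraries were counted here as batch 1.

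The libraries ranged from 40 to 7998 cells and from 31 to 4841 beta cells, and reads per cell are unknown here. The 40-cell library (cKO, normal diet, batch 1) stood apart: its 31 beta cells included no cluster 1 cell, and it had no alpha, delta or PP cell. Libraries shared 140 cell barcodes, each between 2 libraries, and 64 cluster 1 cells (1.47%) carried such a barcode, against 1.54% of all cells. In 68 of the 140 the cells had the same cell type, and in 5 they were all in cluster 1. How often unrelated cells would match in this way was not computed. Leaving out cells with a shared barcode moved no log2 ratio below beyond its counting interval.

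**Figure D1:**
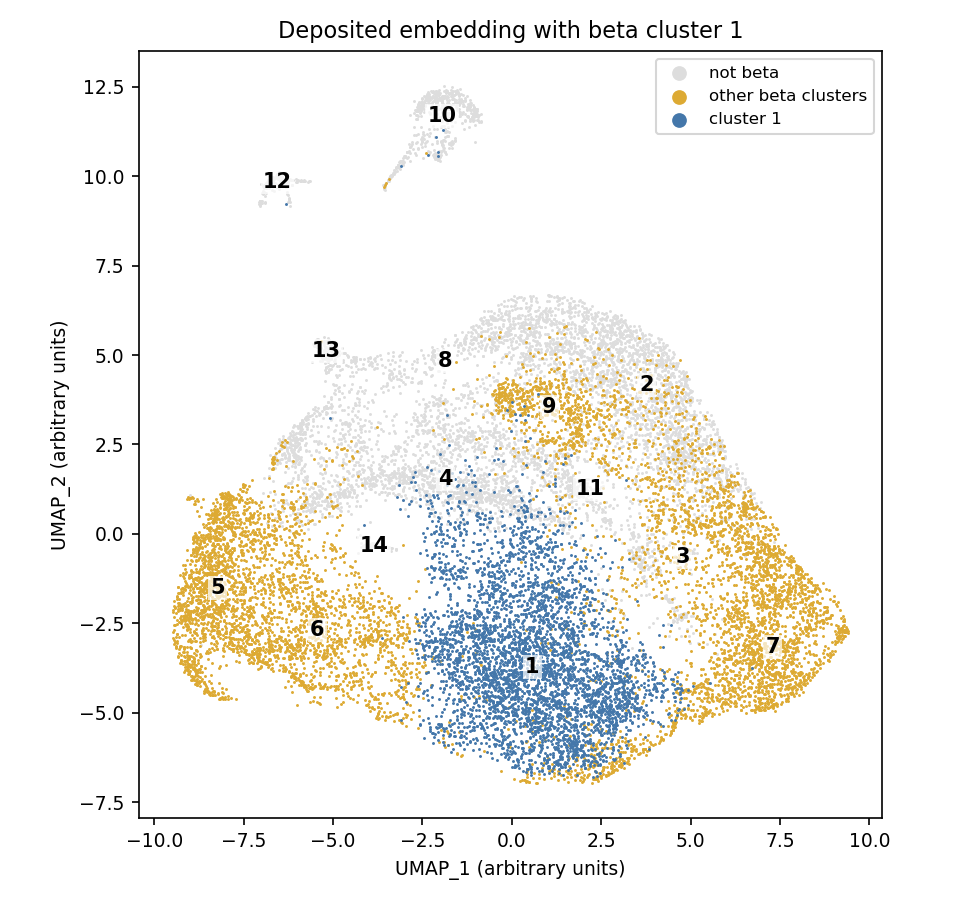
All 18221 cells at their deposited UMAP positions (arbitrary units), with cluster 1 in blue, the other beta clusters in yellow and all other cell types in grey; numbers mark the median position of each of the 14 clusters. Cluster 1 fills the lower middle, with beta cluster 3 on its right, beta cluster 6 on its left and delta cluster 4 above.

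In the control normal-diet library 2443 of 4406 beta cells were in cluster 1, or 55.4% (exact Clopper-Pearson 95% interval 54.0 to 56.9%). In the control high-fat library it was 1718 of 4841, or 35.5% (34.1 to 36.9%). Among cKO mice, the batch 2 normal-diet library had 88 of 236, or 37.3% (31.1 to 43.8%), and the high-fat library had 111 of 2093, or 5.30% (4.38 to 6.35%). The batch 1 normal-diet library had 0 of 31, which allows up to 9.68% (3 cells of 31). The control normal-diet library was thus highest, the control high-fat and batch 2 cKO libraries had overlapping counting intervals, and the cKO high-fat library was far below all 3. These intervals cover counting error only, not variation between mice or preparations.

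Cluster 1 ranked first among the 6 beta clusters in 3 libraries, both controls and the batch 2 cKO normal-diet library. In the cKO high-fat library it ranked last, behind cluster 5 at 5.69% (4.73 to 6.77%), whose interval overlaps its own. Of all cluster 1 cells, 56.0% came from the control normal-diet library and 39.4% from the control high-fat library. The cKO high-fat library gave 2.55% of cluster 1 but 18.0% of all beta cells, whereas the batch 2 cKO library gave 2.02% and 2.03%.

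Beta and alpha cells are the insulin and glucagon cells of the islet, and the number of cluster 1 cells per alpha cell gave another order of libraries. It was highest in the control high-fat library, at 2.22 (95% counting interval 2.04 to 2.42), then in the control normal-diet library at 1.27 (1.20 to 1.35). In cKO mice it was 0.881 (0.683 to 1.14) on the high-fat diet and 0.273 (0.216 to 0.346) in the batch 2 normal-diet library. The 4 intervals do not overlap. The value also depends on how many alpha cells a library held. These were 773 of 6667 cells in the control high-fat and 1925 of 7998 in the control normal-diet library. In cKO mice they were 126 of 2483 on the high-fat diet and 322 of 1033 in batch 2. Both controls lay above both cKO libraries on this measure, and within each genotype the high-fat library lay above the normal-diet library, the opposite of the order given by the share of beta cells. Per delta cell, the somatostatin cells, the order was the same for the controls, at 3.96 (high-fat) and 2.59 (normal diet), and for the cKO libraries, at 0.867 (high-fat) and 0.295 (batch 2).

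**Figure D2:**
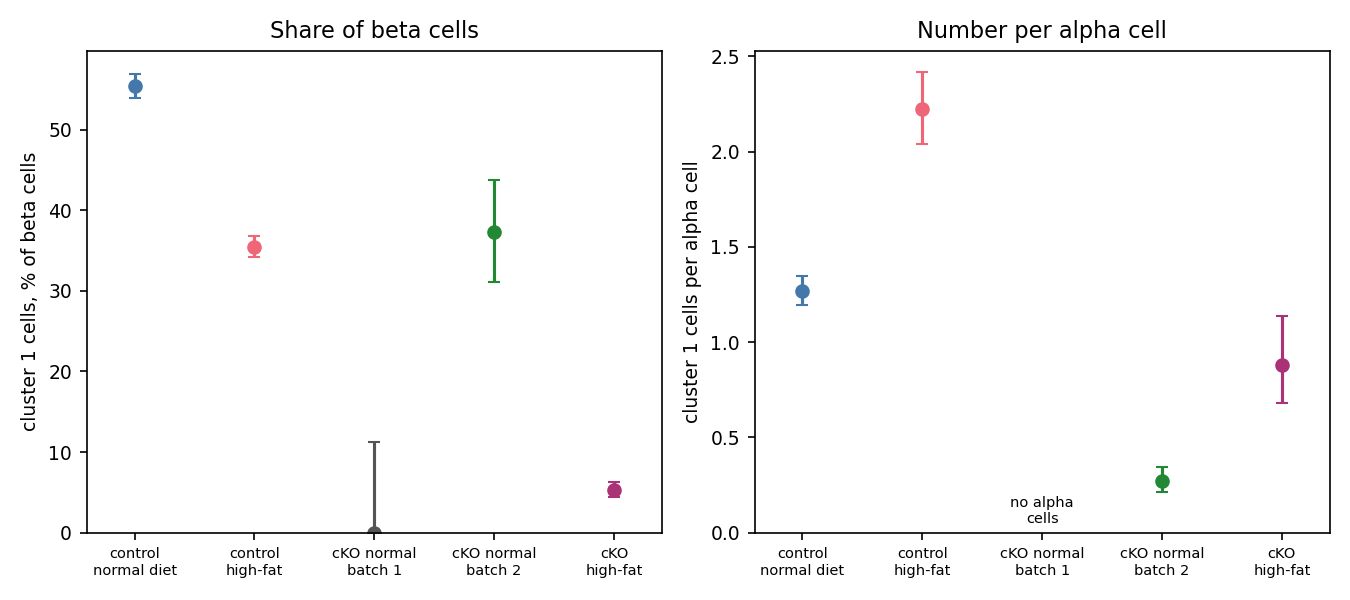
Cluster 1 cells as a percentage of beta cells (left) and per alpha cell (right) in each library; points are single libraries, and the batch 1 cKO library has no point on the right for want of alpha cells. Bars are 95% counting intervals (exact binomial on the left, delta method on the right). The control high-fat library lies below the control normal-diet library on the left (35.5% and 55.4%) and above it on the right (2.22 and 1.27).

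Cells are not replicates, so they gave no p-values. Shares of beta cells were compared as log2 ratios, each with a 95% delta-method interval for counting error. The sole measure of spread between replicates is the pair of cKO normal-diet libraries, of which 1 had no cluster 1 cell. With 3 cells in its place their log2 ratio is 1.95, and with the exact upper limit of 11.2% it is 1.73, each without the counting error of the other library. Mice, preparation and batch cannot be told apart within this pair. A ratio below 1.73 in size is therefore not called larger than the replicate spread, and for a larger one the comparison with that spread cannot be decided.

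The first comparison asked how the beta cell population differs with diet in control mice. Cluster 1 was a smaller part of control beta cells on the high-fat diet, 35.5% against 55.4%, which is 1.56-fold lower (log2 ratio -0.64, -0.71 to -0.58). This is below the 1.73 of the replicate pair in size. In percentage points of beta cells, cluster 1 differed by -19.96 and cluster 6 by -8.29, whereas cluster 3 differed by 13.8, cluster 7 by 9.74 and cluster 5 by 5.14. Cluster 9 differed by -0.413.

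Set against each beta cluster in turn, cluster 1 was lower on the high-fat diet relative to cluster 3 (2.01 against 14.3 cluster 1 cells per cluster 3 cell), to cluster 7 (2.06 against 7.43) and to cluster 5 (1.83 against 3.88). Relative to cluster 6 it was slightly higher, at 3.93 against 3.20 (log2 ratio 0.30, 0.10 to 0.49), and relative to cluster 9 the interval of the log2 ratio included 0 (-0.22, -0.72 to 0.29). There were more cluster 1 cells per alpha, delta and PP cell on the high-fat diet, with log2 ratios of 0.81 (0.66 to 0.96), 0.61 (0.43 to 0.80) and 0.63 (0.34 to 0.93). Per immune cell there were fewer (-1.01, -1.29 to -0.73), and per endothelial cell the interval included 0 (-0.34, -0.81 to 0.13). Beta cells outside cluster 1 numbered 4.04 per alpha cell on the high-fat and 1.02 on the normal diet. The lower share of cluster 1 thus went with more cluster 1 cells per alpha cell and a greater excess of the other beta cells per alpha cell.

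On the high-fat diet both libraries were counted as batch 1. The comparison of genotypes asked how beta cells differ between cKO and control mice under this diet. Cluster 1 made up 5.30% of cKO and 35.5% of control beta cells, 6.69-fold lower in the cKO (log2 ratio -2.74, -3.01 to -2.48). This ratio is above the 1.73 of the replicate pair in size, so its comparison with the replicate spread cannot be decided. Cluster 1 was lower against all 5 other beta clusters. There were 0.126 cluster 1 cells per cluster 3 cell against 2.01, 0.229 per cluster 9 cell against 29.6, and 0.461 per cluster 6 cell against 3.93. The smallest of the 5 differences was that to cluster 5, at 0.933 against 1.83 (log2 ratio -0.97, -1.36 to -0.58). Per alpha cell it was 2.52-fold lower and per delta cell 4.56-fold lower. Beta cells outside cluster 1 went the other way, at 15.7 per alpha cell in the cKO and 4.04 in the control. Without cluster 9, which was 23.1% of cKO beta cells, the share was 6.90% against 35.9%.

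On normal diet the mean of both cKO libraries was 18.6% ± 26.4 (SD, n = 2) of beta cells, and 23.5% with the batch 1 library at its limit. Against 55.4% in the control, the log2 ratio was -1.57 (-1.81 to -1.33), below the 1.73 of the replicate pair in size, and it was -1.24 with batch 1 at its limit. These intervals leave out the counting error of the 0 of 31. The batch 2 library alone gave -0.57 (-0.81 to -0.33). With the batch 1 cKO library alone no ratio can be formed, and the 9.68% allowed there lies below the control share. In the batch 2 library cluster 1 was lower than in the control relative to clusters 3 and 9 (1.54 against 14.3 and 1.91 against 34.4 cells), not distinguishable relative to cluster 6 (3.14 against 3.20) or cluster 5 (log2 ratio 0.80, -0.05 to 1.65), and higher relative to cluster 7, which held 4 cells there. Batch and genotype cannot be told apart for that library.

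In cKO mice the high-fat library lay below the normal-diet mean, 5.30% against 18.6% (log2 ratio -1.81, -2.17 to -1.46), and below the batch 2 library alone by a log2 ratio of -2.81 (-3.17 to -2.46). For both ratios, above 1.73 in size, the comparison with the replicate spread cannot be decided. The high-fat share lay within what 0 of 31 cells allows in batch 1, so the direction rests on the batch 2 library. As a share of all cells, cluster 1 was 4.47% in the cKO high-fat library, 8.52% in the batch 2 library and 0 of 40 in batch 1. The log2 ratio to the mean was then 0.07, where 0 of 40 allows up to 7.50%. Per alpha cell the high-fat library was 3.22-fold above batch 2. Beta cells outside cluster 1 differed more on that measure, at 15.7 per alpha cell in the high-fat and 0.460 in the batch 2 library.

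The ratio of diet ratios, cKO over control, was -1.17 on the log2 scale (-1.53 to -0.81) for the share of beta cells, which is below the 1.73 of the replicate pair in size. It was -2.17 (-2.53 to -1.81) with the batch 2 library alone. Per alpha cell, which only batch 2 allows, its sign changed to 0.88, and over all cells, with the mean of both libraries, it was 0.32.

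**Figure D3:**
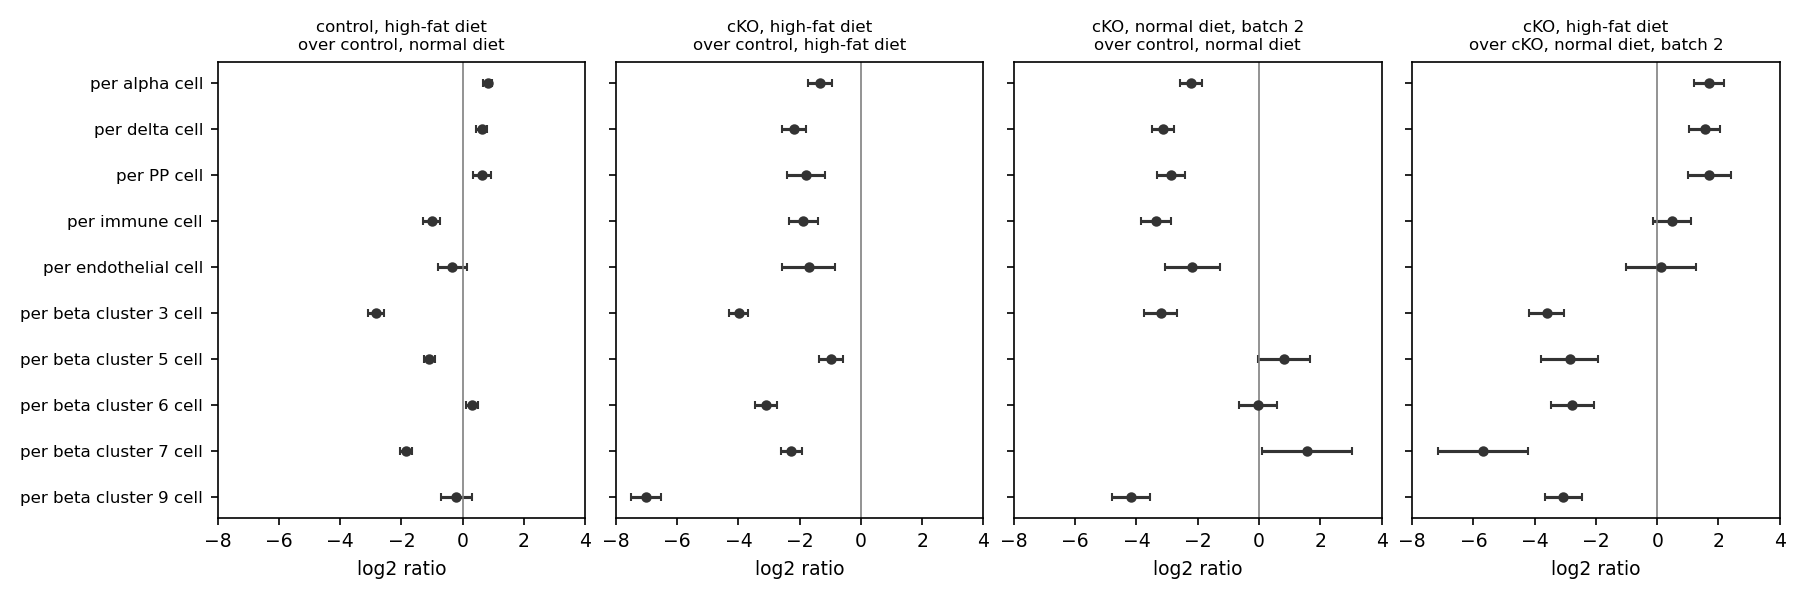
Log2 ratios between pairs of libraries of the number of cluster 1 cells per cell of each other class (x axis), for 4 pairs; points are single comparisons and bars are 95% counting intervals. In the high-fat pair (cKO over control) all points lie left of 0, whereas for diet in controls the points for alpha, delta and PP cells lie right of 0 and those for beta clusters 3, 5 and 7 left of it.

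When all 5 libraries were pooled by 1 factor, the mean share of beta cells was 14.2% in the 3 cKO and 45.5% in the 2 control libraries (exact permutation test, two-sided, p = 0.30; 0.60 after adjustment over the 2 factors). By diet the 2 high-fat libraries had a mean of 20.4% and the 3 normal-diet libraries 30.9% (exact permutation p = 0.70, adjusted p = 0.70). With 2 against 3 libraries this test cannot give a p below 0.10. Neither factor separated the libraries. The batch 2 cKO library (37.3%) lay above the control high-fat library (35.5%), and the batch 1 cKO library, at 0 of 31, lay below both high-fat libraries. This rests on the cKO normal-diet libraries: without batch 1 the diet groups did not overlap (20.4% and 46.4%), and without batch 2 the genotype groups did not (2.65% in cKO and 45.5% in control), where 2 against 2 libraries allow no exact permutation p below 0.33. As a share of all cells, cluster 1 was 30.5% and 25.8% in the controls and 0, 8.52 and 4.47% in the cKO libraries, which do not overlap (exact permutation p = 0.10, the smallest possible, adjusted p = 0.20). That measure also depends on how many cells of a library are beta cells. These were 4406 of 7998 (normal diet) and 4841 of 6667 (high-fat) in the controls. In the cKO libraries they were 31 of 40 (batch 1), 236 of 1033 (batch 2) and 2093 of 2483 (high-fat).

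In the embedding cluster 1 had its centre at 0.58 on UMAP_1 and -3.41 on UMAP_2, with SDs of 1.61 and 1.95 (n = 4360 cells). The root mean square distance of its cells to that centre, used below as the unit of spread, was 2.53, and 95% of cells lay within 4.26 of the median position. Among the 6 beta clusters this spread was second to that of cluster 3 (3.65), and the others ranged from 1.29 (cluster 9) to 2.13 (cluster 6). The long axis of the cluster was 1.46 times the short axis. Distances in a UMAP embedding are not distances in expression, and they depend on settings not given in the sources used here.

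The 3 clusters with the nearest centres were acinar cluster 14 at 3.69, beta cluster 3 at 4.50 and PP cluster 11 at 4.79. Acinar cells were widely scattered (SD 4.03 on UMAP_1), and by median position cluster 14 lay 5.57 away, after clusters 3 and 11. Nearness of centres did not mean contact: of the 30 nearest neighbours of cluster 1 cells, 90.0% were in cluster 1, 5.16% in beta cluster 3 and 2.98% in delta cluster 4, and no other cluster reached 1%. Acinar cells were 0.020% and beta cluster 5 cells 0%. Beta cluster 6 gave 0.643%, PP cluster 11 gave 0.461% and beta cluster 9 gave 0.249%.

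The share of neighbours in the own cluster was higher for cluster 1 than for clusters 5 (88.7%), 7 (87.6%), 6 (80.3%), 9 (64.4%) and 3 (53.6%). Cluster 1 is also the largest of these, which raises such a share. All 30 neighbours were in cluster 1 for 1931 cells (44.3%), and 300 cells (6.88%) had at most 15 of 30. For 27 cells none was, and 8 cells lay mostly among immune cells. The border with cluster 3 was broad and shallow: 47.3% of cluster 1 cells had at least 1 cluster 3 neighbour, but only 1.44% had more than 15. The border with delta cluster 4 was narrow and mixed, since 6.24% had a delta neighbour and 3.07% had more than 15.

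Libraries differed in how far their cluster 1 cells lay inside the cluster. The mean share of neighbours in cluster 1 was 89.8% for control normal-diet cells, 91.8% for control high-fat cells, 83.7% for cKO high-fat cells and 69.7% for the batch 2 cKO normal-diet cells. The last library held 27 of 88 cells with more than 15 of 30 neighbours outside the beta type, or 30.7% (21.3 to 41.4%). The shares were 1.76% (1.28 to 2.36%), 5.06% (4.08 to 6.21%) and 8.11% (3.77 to 14.8%) in the control normal-diet, control high-fat and cKO high-fat libraries. For 25 of the 88 cells those neighbours were mostly delta cells.

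That library was also the richest in delta cells, at 28.8% of its cells and 1.26 per beta cell, against 0.214 per beta cell in the control on normal diet, 0.0897 in the control on the high-fat diet and 0.0612 in the cKO on that diet. Of the delta neighbours of its cluster 1 cells, 17.6% were from the same library, which held 16.5% of all delta cells. These values were 67.7% and 52.4% for the control normal-diet library and 28.1% and 24.0% for the control high-fat library. For the cKO high-fat library they were 3.43% and 7.09%. Doublets, droplets that hold more than 1 cell, were not called here, and their part in this border was not tested. In cluster 3 the share beside non-beta cells was 52.6% in this library and 7.49 to 30.1% in the 3 others. In cluster 9 it was 45.7%, against 39.4% in the control normal-diet and 51.7% in the control high-fat library, and 11.8% for cKO on the high-fat diet. With such cells of all beta clusters left out, cluster 1 was 39.9% (32.1 to 48.1%) of the remaining beta cells of the batch 2 library. The same step gave 56.5% for the control on normal diet, 35.2% for the control on the high-fat diet and 5.81% for the cKO on the high-fat diet, so the order of the libraries was the same.

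The cells of the libraries did not occupy the same part of the cluster. The control normal-diet cells were centred at 1.09 on UMAP_1 and -3.81 on UMAP_2, and the control high-fat cells at -0.07 and -2.94. These centres were 0.573 spreads apart (± 0.044, 95% interval from the standard error of positions over cells). The cKO high-fat centre, at -0.08 and -2.82, lay 0.050 spreads (± 0.179) from the control high-fat centre. The batch 2 cKO normal-diet centre, at -0.21 and -2.26, lay 0.800 spreads (± 0.200) from that of the control on the same diet and 0.228 (± 0.282) from the cKO high-fat centre. The 3 other libraries thus lay closer to each other (0.050 to 0.276 spreads) than any did to the control normal-diet library (0.573 to 0.800). Intervals here are over cells of single libraries.

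**Figure D4:**
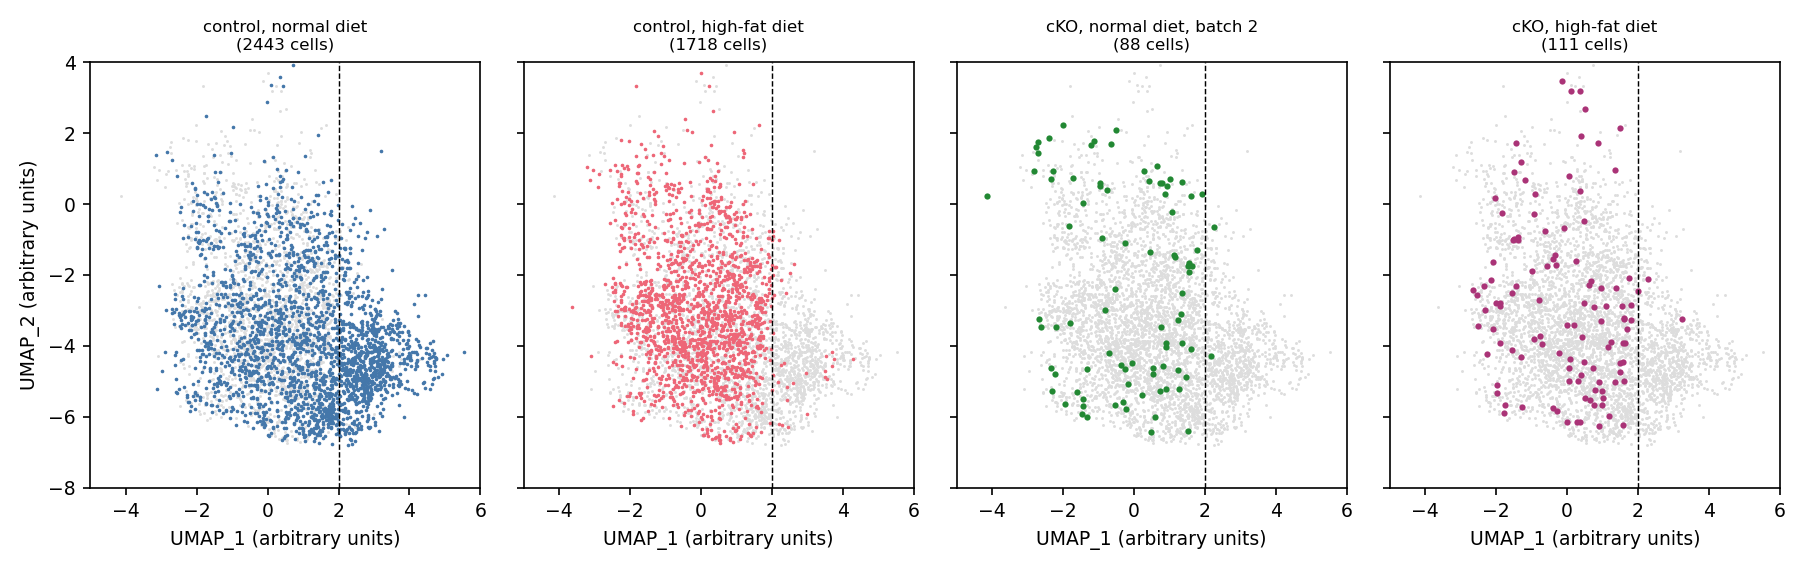
Cluster 1 cells of each library (coloured) over all cluster 1 cells (grey) at their UMAP positions (arbitrary units), for the 4 libraries that have any; 11 cells outside the window are not drawn. The dashed line at 2.00 on UMAP_1 bounds the 20% of cells with the highest values, where 833 of 872 cells are from the control normal-diet library.

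Cluster 1 cells were divided into 5 equal parts along UMAP_1. The part with the highest values, to the right of 2.00, had 872 cells, of which 833 (95.5%) came from the control normal-diet library, 34 from the control high-fat library, 3 from the cKO high-fat and 2 from the batch 2 cKO library. It held 34.1% (32.2 to 36.0%) of the cluster 1 cells of the control normal-diet library, beside 1.98% (1.37 to 2.75%), 2.70% (0.561 to 7.70%) and 2.27% (0.276 to 7.97%) of those of the control high-fat, cKO high-fat and batch 2 cKO libraries. In each of the 3 lower parts, the control normal-diet library gave 40.5 to 43.3% of cells and the control high-fat library 51.8 to 52.8%. This side of the cluster faced beta cluster 3, which supplied 13.7% of the neighbours there and 3.01% elsewhere. Cells of other clusters among those neighbours came from the control high-fat library in 42.1%, from the cKO high-fat library in 30.9% and from the control normal-diet library in 24.96%, so the other libraries were present beside it. Of cluster 3 as a whole, 171 of 1962 cells were from the control normal-diet library. The 24.96% covers all clusters outside cluster 1 and counts a cell each time it is a neighbour. It is therefore not directly comparable with the makeup of cluster 3.

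As a share of each library's beta cells, the right-hand part was 18.9% (17.8 to 20.1%) in the control normal-diet library, 0.702% (0.487 to 0.980%) in the control high-fat library, 0.847% (0.103 to 3.03%) in the batch 2 cKO library and 0.143% (0.030 to 0.418%) in the cKO high-fat library. The 4 other parts together were 36.5% (35.1 to 38.0%) of beta cells in the control normal-diet library, 34.8% (33.4 to 36.1%) in the control high-fat library and 36.4% (30.3 to 42.9%) in the batch 2 cKO library. In the cKO high-fat library they were 5.16% (4.25 to 6.20%). Of all control beta cells, the right-hand part thus held most of the gap between diets, and the log2 ratio of the other parts was -0.07 (-0.15 to 0.01). With the right-hand cells also taken out of the beta cells counted, the shares were 45.1% and 35.03% and the log2 ratio was -0.36 (-0.44 to -0.29). On the high-fat diet the ratio between genotypes was -2.75 (-3.02 to -2.48) and -2.76 (-3.03 to -2.49) in these 2 ways of counting. This part was set aside after its makeup had been seen, so these are descriptions of where the differences lie.

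In the cKO high-fat library cluster 1 was low along the whole of UMAP_1. From the lowest to the highest part it held 1.72, 0.956, 1.34, 1.15 and 0.143% of beta cells, against 9.34, 9.50, 9.40, 6.55 and 0.702% in the control high-fat library. The exact intervals of the 2 libraries did not overlap in any of the 5 parts.

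**Figure D5:**
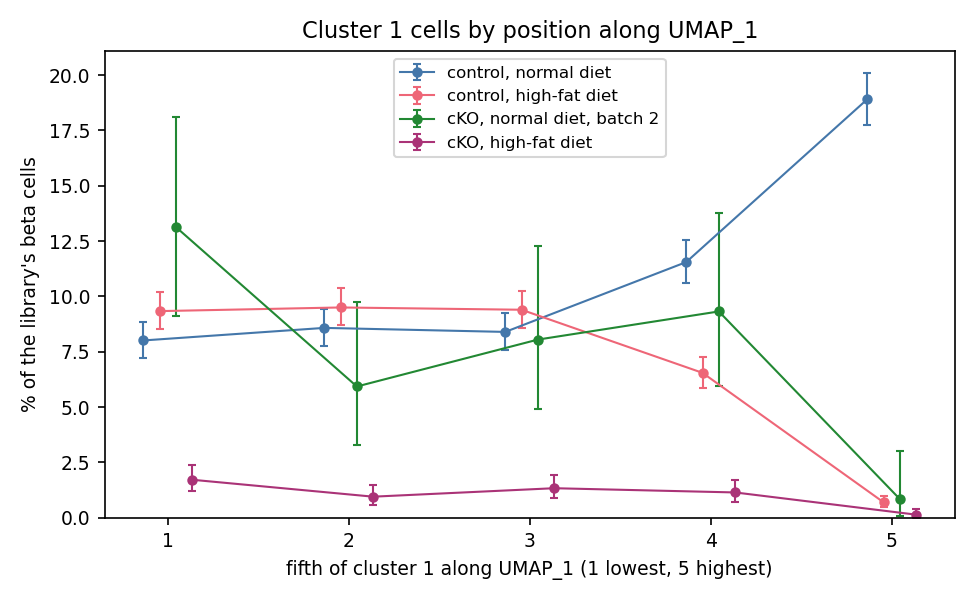
Cluster 1 cells in each of 5 equal parts along UMAP_1, as a percentage of the beta cells of their library, for 4 libraries; bars are exact 95% binomial intervals. The control normal-diet library stands apart in the highest part (18.9% against at most 0.847%), and the cKO high-fat library lies below the controls in all 5.

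Along UMAP_2 the batch 2 cKO library stood furthest from the control normal-diet library. The part with the highest values, next to delta cluster 4, held 47.7% (37.0 to 58.6%) of the batch 2 cKO cells, 27.9% (19.8 to 37.2%) of the cKO high-fat cells, 24.9% (22.8 to 27.0%) of the control high-fat cells and 15.2% (13.8 to 16.7%) of the control normal-diet cells, where equal spreading would give 20%. The part with the lowest values held 25.5% of the control normal-diet cells and 12.3% of the control high-fat cells.

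Mixing was described among cluster 1 cells alone, as the share of the 30 nearest cluster 1 neighbours from a library over the share its cell number gives. Cells had more neighbours of their own library than this, by 1.17 times (1.13 to 1.20) in the control normal-diet, 1.31 times (1.25 to 1.37) in the control high-fat and 3.34 times (1.27 to 7.14) in the batch 2 cKO library. In the cKO high-fat library the ratio was 1.56, with an interval that includes 1 (0.39 to 3.55). These intervals treat each cell as 1 observation. With each library weighted equally the values were 1.32, 1.17, 1.22 and 2.04. Neighbours from the control normal-diet library were under-represented around all 3 other libraries, at 0.769, 0.789 and 0.766 times the expected share for control high-fat, cKO high-fat and batch 2 cKO cells. Control high-fat cells were over-represented around both cKO libraries, at 1.24 times for the cKO high-fat and 1.20 times for the batch 2 cKO library, but not with libraries weighted equally (0.964 and 0.729). In spite of the ratio of 3.34, 31 of 88 batch 2 cells had no neighbour of their own library, since the ratio starts from an expected share of 2.00%.

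Among the control cells alone, 58.7% were from the normal-diet library. A normal-diet cell had a median of 63.3% normal-diet neighbours and a high-fat cell 43.3%. At least 80% of neighbours were normal-diet cells for 979 normal-diet cells (40.1%) and 56 high-fat cells (3.26%), whereas at most 20% were for 26 (1.06%) and 54 (3.14%). Control cells surrounded mostly by 1 control library were thus chiefly normal-diet cells among their own kind, although the larger number of normal-diet cells makes that side easier to reach.

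All 31 batch 1 beta cells from cKO mice on normal diet, 21 in cluster 5 and 9 in cluster 7, lay outside cluster 1. None had a cluster 1 cell among its 30 neighbours, and the nearest was 1.00 away. In every other library some beta cells of other clusters did, from 206 of 1963 (10.5%) in the control normal-diet library to 30 of 148 (20.3%) in the batch 2 cKO library.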

How the data were processed

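The 4 tables deposited by the authors give a library, cell type, cluster number and UMAP position for each cell. UMAP positions are scores in arbitrary units, as deposited by the authors. Cell Ranger 7.1.0 and the build GRCm39 were used, per the submitters' processing notes. Cell filters, doublet treatment, integration, clustering and naming were not stated in any label or header. Both cKO normal-diet libraries share 1 suffix in the cell identifiers, per the deposited tables. Tables were joined by cell identifier, and library names were matched to sample titles (0 columns unmatched).

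Here shares, ratios, neighbours (SciPy 1.17.1, pandas 2.3.3, Python 3.11.15) and intervals were computed. Neighbours were the 30 nearest cells in the embedding. Where no cell was counted, 3 cells served as the limit. All 6 beta clusters are named for shares, and for the embedding those with at least 1% of neighbours or the 3 nearest centres. Calculations were checked on simulated data. Sample titles separate the cKO normal-diet libraries by batch only, and they were taken as separate pools of mice. The members, comparisons and alternatives were chosen with earlier results of these data known.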

Additional observations from a re-analysis of the deposited data

How the results depend on the processing

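No paired analysis was possible because only 1 group had 2 libraries. The denominator decided several directions. Batch 1 has no alpha or delta cell, so values per such cell that involve cKO on normal diet use batch 2 alone and compare with the values without cKO_ND replicate 1. Per alpha cell the log2 ratio was 0.81 for diet in controls, 1.69 for diet in cKO, -2.22 for genotype on normal diet, -1.34 on the high-fat diet and 0.88 for the ratio of diet ratios; per delta cell (added after seeing the data) these were 0.61, 1.55, -3.13, -2.19 and 0.94. Over all cells they were -0.25, 0.070, -2.84, -2.53 and 0.32, and over endocrine cells -0.21, -0.0037, -2.78, -2.57 and 0.21. Over beta cells without cluster 3 they were -0.42, -1.43, -1.23, -2.24 and -1.01. Without cluster 9, genotype gave -1.28 on normal and -2.38 on the high-fat diet. Odds ratios were -1.18 (diet, controls), -2.44 (genotype, normal diet) and -3.30 (genotype, high-fat).

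Without cKO_ND replicate 1, values were -2.81 (diet, cKO), -0.57 (genotype, normal diet) and -2.17 (ratio of diet ratios). Without cKO_ND replicate 2 no ratio exists, as the remaining share is 0. Summing cKO normal-diet cells gave -2.64, -0.75 and -1.99. With batch 1 at its limit, genotype on normal diet gave -1.24.

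The following were added after seeing the data. Counting beta cells with more than 15 of 30 neighbours in cluster 1, in place of the cluster number, gave -0.63 (diet, cKO), -1.95 and -1.99 (genotype, normal and high-fat diet) and -0.039 (ratio of diet ratios). Without beta cells beside non-beta cells, all 5 ratios stayed within their main intervals. Without the cluster 1 cells of the right-hand part of UMAP_1 in the numerator, values were -0.071 (diet, controls), -1.004 (genotype, normal diet) and -1.75 (ratio of diet ratios), and without them in the denominator too -0.36 (diet, controls) and -1.29 (genotype, normal diet). The cause of these shifts was not tested.

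Pooled by diet, the mean share of all cells was 2.10 points higher on high-fat, against 10.5 points lower (-10.5) for beta cells. Leaving out a cKO normal-diet library gave -26.0 to -7.33 points by diet and -42.8 to -24.2 by genotype. Own-library ratios with equal weights were 1.32 (control, normal diet) and 1.17 (control, high-fat). The own-cluster neighbour share was 93.0% among beta cells alone. The distance between control centres was 0.621 by median position and 0.675 with the median distance as unit, and the spread was 2.24 for cells with at least 15 of 30 neighbours in the cluster.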

Other observations

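Some beta cells of other clusters lay inside cluster 1, with more than 15 of 30 neighbours there. They numbered 209 of 1962 cells in cluster 3 (10.7%), 21 of 1469 in cluster 6 (1.43%), 4 of 1434 in cluster 7, and none in clusters 5 and 9. Of the cluster 3 cells, this held for 43 of 171 in the control normal-diet library (25.1%), 77 of 855 in the control high-fat library (9.01%), 5 of 57 in the batch 2 cKO library (8.77%) and 84 of 879 in the cKO high-fat library (9.56%). In the cKO high-fat library these 84 cells compare with 111 cells of cluster 1 itself. In the control normal-diet, control high-fat and batch 2 cKO libraries the 43, 77 and 5 cells compare with 2443, 1718 and 88.

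Measured against control cluster 1 cells only, of which 58.7% were from the normal-diet library, the 30 nearest control neighbours of a cKO cell were normal-diet cells in 47.6% for the cKO high-fat library (111 cells) and in 47.4% for the batch 2 cKO normal-diet library (88 cells).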
